A study of Bos taurus with 30 samples.

Results

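Jugular blood of 5 heifers (Bos taurus) was kept for 24 h at 4 °C before the peripheral white blood cells (PWBCs) were isolated, and transcript abundance was compared with that of blood from the same draw processed at 1 h. The comparison used 10 of the 30 samples in the series, 1 library at each storage time from each heifer, named subjects A to E. The genes compared were those with more than 1 CPM (the count of a gene scaled to its library total) in 5 or more of the 10 libraries, which were 13363 of the 27607 genes counted. The heifers were crossbred beef animals (Angus x Simmental), slightly over a year old on average, and estrus synchronization was common to all of them and to both storage times. Blood was drawn into tubes with EDTA, an anticoagulant, and tubes were assigned to storage times at random within each animal. The 5 libraries of coccygeal (tail vein) blood processed at 1 h are given beside the others where a second set of unstored samples bears on a value.

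PWBCs are a mixture: lymphocytes (T, B and natural killer cells), monocytes and granulocytes, with platelets carried along in the buffy coat from which they are recovered. T cells recognize antigen through a receptor helped by the co-receptors CD4 or CD8, monocytes sense bacterial products through CD14 and TLR4, and platelets are cell fragments without a nucleus that still hold RNA made in their parent cell. In a mixture of this kind fewer cells of a type and less RNA per cell cannot be told apart. Libraries were made from polyadenylated RNA, so that transcripts without a poly(A) tail enter poorly.

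Library totals ranged from 12412619 to 19492274 counts in the 10 jugular libraries, and 3 counts corresponded to 0.154 to 0.242 CPM, a limit for counting error only. The markers named irrespective of change that passed the filter on level were 5 for T cells, 4 for B cells and 8 for natural killer and cytotoxic cells. There were 7 for monocytes, 7 for neutrophils and 9 for platelets, and the red blood cell list had 1 gene, TMCC2. These numbers were set by the filter and by the names available, and do not test which cells were present. The library of subject A at 1 h stood apart: its 7 neutrophil genes summed to 788 CPM against 215 to 322 CPM in the other 4 libraries at 1 h, and to 329 CPM at 24 h. In coccygeal blood at 1 h subject A was the highest as well, at 550 CPM against 282 to 478 CPM in the other animals. Results that rest on subject A are therefore given with and without that animal.

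A gene was called when the adjusted p (FDR, Benjamini-Hochberg) was under 0.05 in both edgeR's quasi-likelihood test and DESeq2's Wald test and the edgeR log2 fold change was above 0.5 or below -0.5, with subject as a block. Of the 13363 genes, 356 were called (2.66%), 202 higher at 24 h (1.51%) and 154 lower (1.15%). The median log2 fold change was 0.60 for the genes called higher, -0.64 for those called lower and 0.01 for all genes tested. Most calls were moderate, with 332 of the 356 between 0.5 and 1 log2 unit in size. Only 14 genes rose and 10 fell by more than 1 log2 unit. With no replicate block 28 genes were called, 25 of them among the 356. DESeq2 gives no adjusted p to genes it filters out; with its p-values adjusted over all genes tested, an alternative added after the data were seen, 366 genes were called, 346 of them among the 356.

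**Figure D1:**
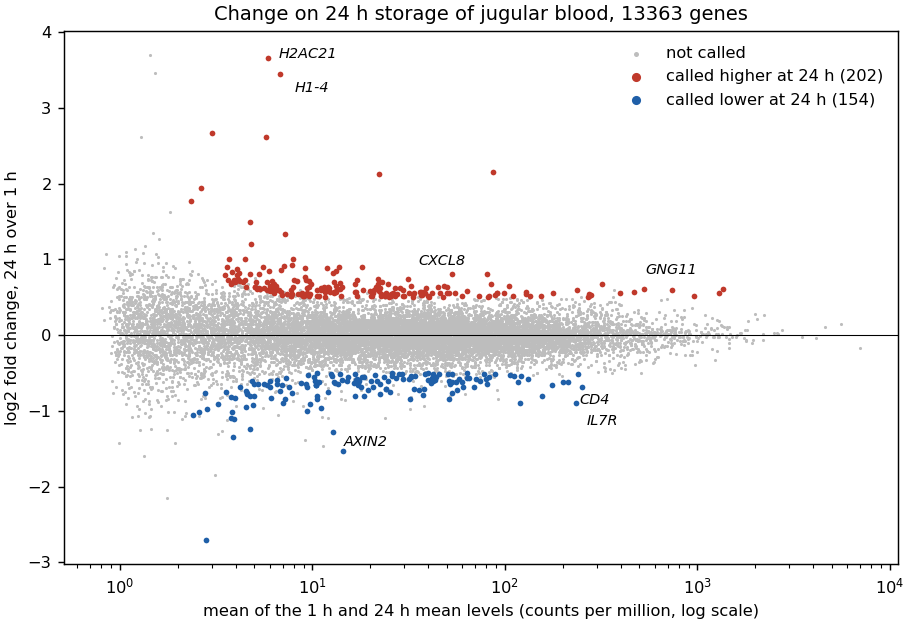
Log2 fold change of transcript abundance (24 h over 1 h, vertical axis) against the mean level in CPM (horizontal axis, log scale) for 13363 genes, each point a gene. Red points are the 202 genes called higher and blue points the 154 called lower at 24 h; most lie between 0.5 and 1 log2 unit from 0, and a few genes at low levels, among them H2AC21 and H1-4, rose far more.

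Calls were spread over the range of levels. In the third of genes with the lowest mean level (up to 13 CPM), 97 were called higher and 61 lower. In the third with the highest level (53.3 CPM and above), 33 were called higher and 31 lower. In the median gene tested, 61.8% of the sum of squares of log2(CPM + 1) lay between subjects and 10.2% between times. There were more subjects than times, so that a larger share falls between subjects even without any effect. The shares therefore do not compare the sizes of the differences. The corresponding values for the called genes, which were selected for their difference between times, were 41.3% and 50.2%.

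The size of the change differed among subjects. Over the 154 genes called lower, the median log2 difference was -1.06 in subject A, -0.60 in both B and D, -0.54 in E and -0.49 in C. Over the 202 genes called higher, the medians were 0.76 for A, 0.75 for B, 0.64 for D, 0.58 for E and 0.42 for C. Subject A therefore changed most and subject C least, in both directions. When the calls were made without the subject in question, the median log2 difference in the subject left out was 0.69 (89 genes higher) and -1.0 (67 genes lower) in subject A, and 0.29 (207 genes) and -0.33 (182 genes) in subject C. The remaining subjects lay between these values, from 0.37 to 0.68 for genes higher and from -0.54 to -0.48 for genes lower. Of the 356 genes, 149 were called again without subject A, 154 were not, and 53 passed the edgeR and fold thresholds but had no DESeq2 adjusted p.

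Names of genes came from 2 sources that are kept apart below. A block of 1630 consecutive Ensembl identifiers was annotated irrespective of change, and 1622 of its genes were tested, of which 35 were called (2.16%), 20 higher and 15 lower. A further 177 genes were named because the study had listed them as changed in these same samples, so that their direction is not independent evidence. Over all genes, 1.51% were called higher and 1.15% lower. Those shares stand beside the counts of called list members below. Only members named irrespective of change were not selected for their change. Levels are given in CPM, which is not corrected for transcript length, and are compared between times for a gene but not between genes. Values after ± are SDs over the 5 subjects, and the SE of a log2 fold change is that of DESeq2.

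T cell transcripts were lower after storage. All 18 genes of the T cell list that were tested had a negative log2 fold change, 14 of them were called lower and 0 higher (median -0.61). The study had listed 13 of them as changed, so that this count and median were largely set by selection. Among the 5 named irrespective of change, 2 were called lower, CD4 among them, where 1.15% of all genes were called lower. All 5 had a negative log2 fold change, with a median of -0.50 against 0.01 for all genes. Of these 5, 3 had an edgeR FDR under 0.05, where 6.11% of all genes had such an FDR and a lower level. Among the 13 named by the study's lists, 12 were called lower, all except FOXP3.

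CD4 (chromosome 5, 103631360 to 103654878 on ARS-UCD1.2), the co-receptor of helper T cells, was at 250, 234, 277, 225 and 299 CPM in subjects A to E at 1 h and at 111, 160, 175, 189 and 213 CPM at 24 h. Every library at 24 h lay below every library at 1 h, and the log2 fold change was -0.62 (SE 0.10, edgeR FDR = 0.015). TCF7, a transcription factor of naive T cells, had a log2 fold change of -0.38 (SE 0.07, edgeR FDR = 0.00718), which is under the fold threshold. The adaptor genes FYB1 (log2 fold change -0.50, edgeR FDR = 0.0537) and SKAP1 (-0.10, edgeR FDR = 0.379) were not called.

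Among the T cell genes from the study's lists, the largest falls were those of LEF1 and IL7R. LEF1, a transcription factor that acts with TCF7 at the end of the Wnt pathway, was at 129, 135, 201, 113 and 194 CPM at 1 h and at 48.9, 72.8, 106, 73.4 and 123 CPM at 24 h (log2 fold change -0.90, SE 0.10, edgeR FDR = 0.00388). IL7R, the receptor chain for the survival cytokine interleukin 7, was at 311, 343, 370, 184 and 300 CPM at 1 h and at 105, 237, 203, 102 and 186 CPM at 24 h (log2 fold change -0.90, SE 0.11, edgeR FDR = 0.0106). Both fell in 5 of 5 subjects, most in subject A. The lineage regulators BCL11B (-0.78), RORA (-0.69) and GATA3 (-0.59), the co-stimulatory receptor CD28 (-0.66), and the surface molecules CD2 (-0.62), CD8A (-0.60) and CD6 (-0.52) also fell. CD2 was called in 1 of the 5 fits with a subject left out.

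The T cell result depended in part on subject A. Without that animal 7 of the 18 genes were called lower, among them LEF1 (log2 fold change -0.78), IL7R (-0.74), BCL11B (-0.65) and GATA3 (-0.51), and the median was -0.50; 1 further gene had no DESeq2 adjusted p. CD4 (-0.49) was then not called, and 0 of the 5 genes named irrespective of change remained, with a median of -0.33. Without any one of the other subjects, 11 to 13 of the 18 were called. The summed level of the 5 T cell genes named irrespective of change fell to 0.543 of its 1 h value in subject A and to between 0.738 and 0.832 in the other 4 subjects. Against the coccygeal libraries at 1 h, 11 of the 18 were called lower, 3 of the 5 named irrespective of change among them.

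**Figure D2:**
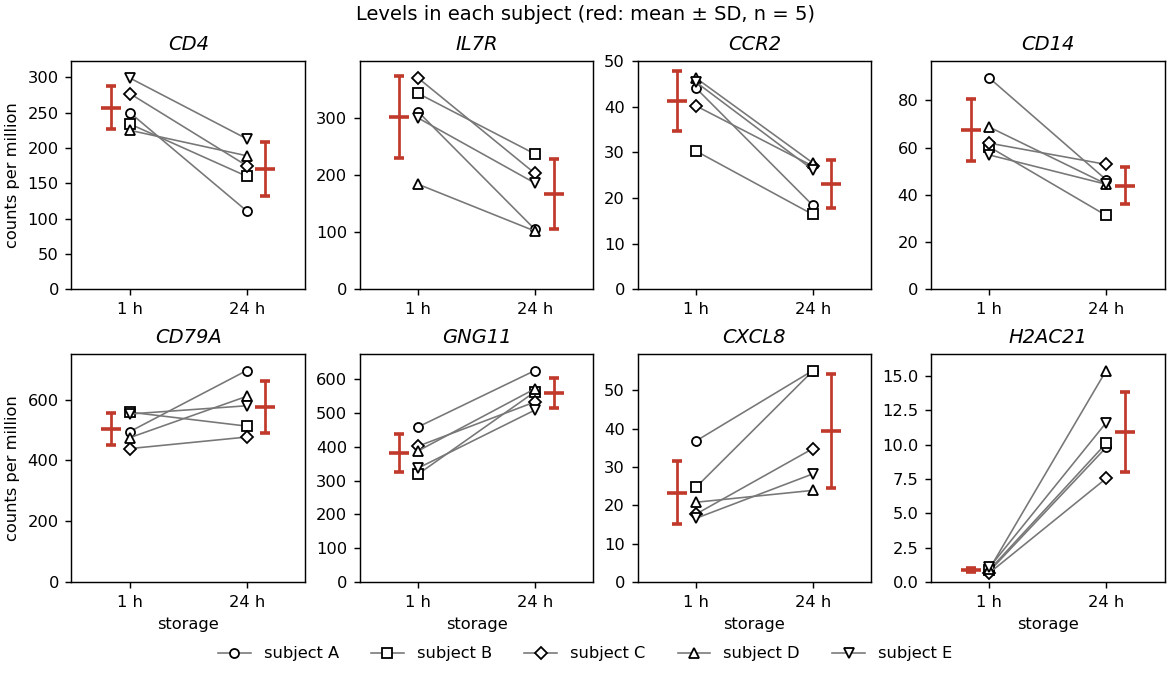
Levels of 8 genes in CPM (vertical axes, starting at 0) in jugular blood processed at 1 h and at 24 h, with a line for each of the 5 subjects and the mean ± SD (n = 5) in red. CD4, IL7R, CCR2 and CD14 went down and GNG11, CXCL8 and H2AC21 went up in every subject, whereas CD79A, which was not called, went down in subject B and up in the other 4.

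Genes of the Wnt pathway, in which LEF1 and TCF7 act and which tunes the state of naive T cells, included 3 called lower of 12 tested and 0 called higher (median -0.26). Over all genes, 1.15% were called lower. Among the 9 named irrespective of change, 1 was called lower and the median was -0.21. The 3 called were LEF1, AXIN2 and TLE1, the first 2 from the study's lists. AXIN2, a feedback inhibitor whose transcription the pathway itself drives, had a log2 fold change of -1.28 (SE 0.16, edgeR FDR = 0.000736). TLE1 is a co-repressor that binds LEF1 and TCF7. TLE1, named irrespective of change, was at 19.8, 21.9, 18.4, 10.4 and 19.9 CPM at 1 h and at 8.89, 16.5, 12.6, 8.14 and 15.7 CPM at 24 h (log2 fold change -0.56, SE 0.15, edgeR FDR = 0.0192). AXIN2 was called with each subject left out in turn, whereas TLE1 was not called without subject A (-0.41) or C (-0.56).

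Receptors for chemokines and cytokines guide leukocytes and keep them alive. Those called were lower, but most were named because the study had listed them as changed. Of 9 chemokine receptor genes tested, 5 were called lower and 0 higher, all 5 from the study's lists. Over all genes, 1.15% were called lower. CCR2, which draws monocytes and activated T cells towards CCL2, was at 44.1, 30.3, 40.2, 46.3 and 45.4 CPM at 1 h and at 18.4, 16.4, 27.0, 27.7 and 26.2 CPM at 24 h, with no overlap of the groups (log2 fold change -0.85, SE 0.12, edgeR FDR = 0.00264). CCR4 (-0.71), found on helper and regulatory T cells, and CCR7 (-0.54), which leads naive T cells into lymph nodes, fell without overlap of the groups as well, and CXCR6 (-0.59) fell with overlap.

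The 3 chemokine receptors named irrespective of change were not called. CXCR4, the receptor for CXCL12, had a log2 fold change of -0.36 (edgeR FDR = 0.0414), CCR3 of 0.16 (edgeR FDR = 0.163) and CX3CR1 of 0.05 (edgeR FDR = 0.639). The 9 genes therefore did not move alike, and CCR3 and CX3CR1, markers of eosinophils and of cytotoxic cells and patrolling monocytes, had means at 24 h slightly above those at 1 h. Without single subjects between 3 and 4 of the 9 were called lower, 3 without subject A, C or D, against 5 with all subjects.

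Of 11 cytokine receptor genes tested, 5 were called lower and 0 higher, where 1.15% of all genes were called lower. IL6ST, the signalling chain shared by the receptors for interleukin 6 and oncostatin M, was at 45.7, 57.1, 95.4, 66.8 and 70.6 CPM at 1 h and at 24.5, 38.0, 56.8, 32.8 and 46.3 CPM at 24 h. It was lower at 24 h in each subject, with a log2 fold change of -0.77 (SE 0.09, edgeR FDR = 0.00133), and was called with each subject left out. IL7R, described above, IL1RL1 (-1.01), the receptor for interleukin 33, and IL17RB (-0.74) came from the study's lists too. IL5RA, the receptor by which eosinophils and basophils respond to interleukin 5, was the 1 of 5 named irrespective of change that was called (log2 fold change -0.56, SE 0.17, edgeR FDR = 0.0235), and it was not called without subject A (-0.51), B (-0.43) or D (-0.58), nor against the coccygeal libraries (-0.35). IL4R (-0.20, edgeR FDR = 0.0373) and IL18R1 (-0.61, edgeR FDR = 0.129) were not called. Without subject A or B 2 of the 11 were called, with IL1RL1 left without a DESeq2 adjusted p, and 2 against the coccygeal libraries.

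Where 1.15% of all genes were called lower, 5 of 17 other G protein-coupled receptors were called lower and 0 higher, all 5 from the study's lists. They were the prostaglandin E receptor PTGER4 (-0.58), the thrombin receptor F2R (-0.69), the leukotriene receptor CYSLTR2 (-0.75), GPR132 (-0.62) and GPR15 (-0.61), a homing receptor of T cells. Without subject A 2 of the 17 were called. None of the 11 named irrespective of change was called, and their log2 fold changes had a median of -0.17. They included the sphingosine 1-phosphate receptors S1PR4 (-0.17, edgeR FDR = 0.116) and S1PR5 (0.15, edgeR FDR = 0.294).

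Some monocyte genes and sensors of bacterial products were called lower at 24 h. Of 11 monocyte and macrophage genes tested, 4 were called lower and 0 higher (median -0.39), all 4 from the study's lists. Over all genes, 1.15% were called lower. CD14, which hands lipopolysaccharide to TLR4, was at 89.5, 60.3, 61.9, 68.7 and 56.9 CPM at 1 h and at 46.4, 31.3, 52.9, 44.6 and 44.5 CPM at 24 h, with no overlap of the groups (log2 fold change -0.62, SE 0.12, edgeR FDR = 0.0125). VCAN, a proteoglycan of monocytes, fell from 309 ± 73.8 to 194 ± 56.2 CPM (log2 fold change -0.69, SE 0.09, edgeR FDR = 0.00371), and both were called with each subject left out. Against the coccygeal libraries VCAN was called (-0.56) and CD14 was not (-0.50). TLR4 had a log2 fold change of -0.61 (SE 0.13, edgeR FDR = 0.0202), and it was not called without subject A (-0.47), D (-0.56) or E (-0.64), nor against the coccygeal libraries (-0.56).

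Of the 7 monocyte genes named irrespective of change 0 were called, while 3 had an edgeR FDR under 0.05 with a smaller fall. These were LGALS3, a galectin (-0.43), LIPA, the lysosomal acid lipase (-0.39), and CST3, the protease inhibitor cystatin C (-0.23, edgeR FDR = 0.0495). The macrophage marker CD68 had a log2 fold change of -0.09 (edgeR FDR = 0.701). The summed level of the 7 genes at 24 h was 0.652 of that at 1 h for subject A, 0.799 for B, 0.823 for D, 0.885 for E and 0.955 for C. All 5 ratios were below 1, and the order of the subjects put A and C at the ends as for the called genes.

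Innate sensors and adaptors included 4 called lower and 0 higher of 15 tested, where 1.15% of all genes were called lower. Besides CD14 and TLR4 these were NOD2 (-0.54), a cytosolic sensor of peptidoglycan, and NLRC4 (-0.60), which assembles an inflammasome, both from the study's lists. Of the 10 named irrespective of change 0 were called, and UNC93B1, a chaperone of endosomal Toll-like receptors, was above 1 h with a log2 fold change of 0.27 (SE 0.07, edgeR FDR = 0.0133), under the fold threshold. MYD88, the adaptor below most Toll-like receptors, had -0.23 (edgeR FDR = 0.119). Without subject A 2 of the 15 were called lower, and 1 against the coccygeal libraries.

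Transcripts of B cells and of most cytotoxic genes were not called. The 4 B cell genes had log2 fold changes of 0.18 to 0.27 (median 0.20), and 0 were called. With 2.66% of all genes called, lists of this size would hold few calls or none. CD79A, a signalling chain of the B cell receptor, was at 495, 559, 439, 475 and 553 CPM at 1 h and at 696, 513, 477, 611 and 580 CPM at 24 h, so that the groups overlapped (log2 fold change 0.18, SE 0.09, edgeR FDR = 0.184). The other B cell genes were FCRL5 (0.18, edgeR FDR = 0.0764), STAP1 (0.27, edgeR FDR = 0.153) and MEF2B (0.22, edgeR FDR = 0.378). Of 8 natural killer and cytotoxic genes named irrespective of change 0 were called (median 0.01). The Fc receptor FCGR3A had a log2 fold change of -0.02 (SE 0.08, edgeR FDR = 0.876), while the pore-forming protein PRF1 had -0.32 (SE 0.09, edgeR FDR = 0.0204). From the study's lists CRTAM (-0.85), a receptor of activated cytotoxic lymphocytes, and EOMES (-0.65), a transcription factor of cytotoxic cells, were called lower.

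**Figure D3:**
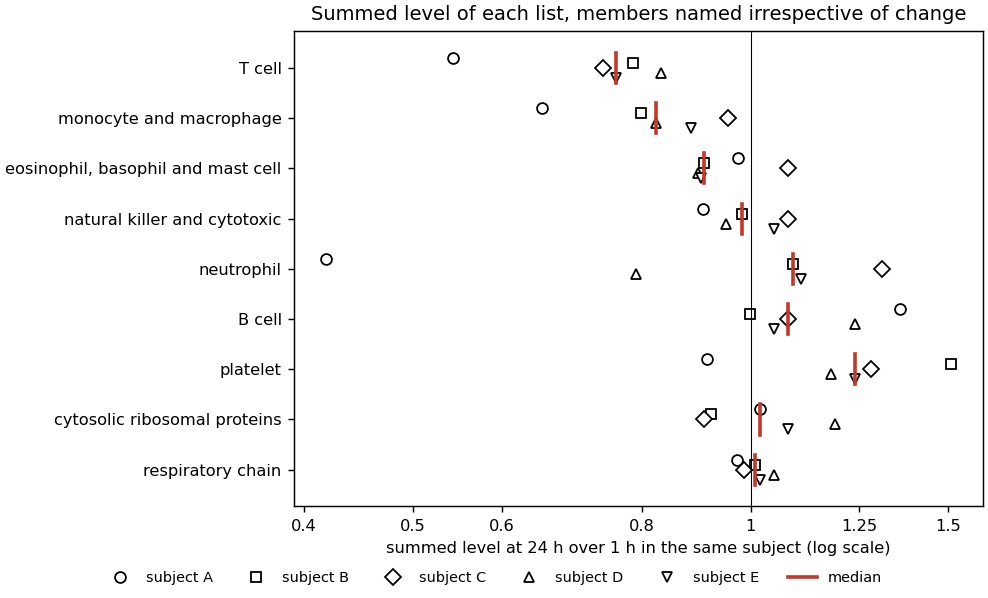
Ratio of the summed level at 24 h to that at 1 h in the same subject (horizontal axis, log scale) for 9 gene lists, with members named irrespective of change, a symbol for each subject and the median in red. The T cell and monocyte ratios were below 1 in all 5 subjects. The respiratory chain ratios lay between 0.972 and 1.05 and the ribosomal ratios between 0.909 and 1.19. Subject A had the lowest ratio for T cells, monocytes, cytotoxic cells, neutrophils and platelets.

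Granulocyte genes varied widely among subjects. The 7 neutrophil genes named irrespective of change had 0 calls, with log2 fold changes from -1.26 to 0.20, and their summed level at 24 h was 0.418 of that at 1 h in subject A, 0.791 in subject D and 1.09, 1.11 and 1.31 in subjects B, E and C. For basophils, eosinophils and mast cells, which are rare in blood, 2 of 6 genes were called lower, IL5RA and IL1RL1. Over all genes, 1.15% were called lower. Without subject A, B or D 0 of these 6 genes were called, but 1 or 2 of them, IL1RL1 included, then had no DESeq2 adjusted p. With the p-values adjusted over all genes tested, 0 were called without A, 1 without B (GATA2) and 2 without D (GATA2 and IL1RL1). Against the coccygeal libraries neither IL5RA nor IL1RL1 (-0.72) was called. GATA2, a transcription factor of mast cells and basophils, was at 3.33, 1.14, 0.978, 1.68 and 7.57 CPM at 1 h and at 1.1, 0.33, 0.39, 0.505 and 0.473 CPM at 24 h. It was lower in each subject (log2 fold change -2.15, SE 0.45, edgeR FDR = 0.00808) but DESeq2 gave it no adjusted p, so that it could not be called with the main settings. GATA2 was called without subject C (-2.28) and against the coccygeal libraries (-1.58). The stem cell factor receptor KIT had -0.37 (edgeR FDR = 0.0152), CCR3 had 0.16 and GATA1 had 0.03 (edgeR FDR = 0.918).

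Part of the platelet list was called higher. Of 13 tested, 6 were called higher and 1 lower, and the median log2 fold change was 0.33. Among the 9 named irrespective of change 3 were called higher and 0 lower, where 1.51% of all genes were called higher. GNG11 (chromosome 4, 11242533 to 11247552), a G protein subunit abundant in platelets, was at 459, 319, 402, 388 and 337 CPM at 1 h and at 626, 563, 533, 572 and 509 CPM at 24 h. Every library at 24 h exceeded every library at 1 h (log2 fold change 0.57, SE 0.07, edgeR FDR = 0.00292).

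NRGN, a calmodulin-binding protein found in platelets, was at 7.85, 17.8, 15.7, 6.04 and 17.4 CPM at 1 h and at 16.1, 30.0, 26.6, 8.77 and 20.6 CPM at 24 h (log2 fold change 0.67, SE 0.14, edgeR FDR = 0.00781). LY6G6F, a platelet surface protein, rose from 30.3 ± 9.96 to 43.4 ± 13.2 CPM (log2 fold change 0.53, SE 0.11, edgeR FDR = 0.00781). Both were higher at 24 h in each subject, with overlap of the groups that came from differences between subjects. LY6G6F lies at 27599221 to 27602913 on chromosome 23, close to LY6G6E (27595986 to 27598654) and LY6G6C (27589914 to 27592606), which rose by 0.62 and 0.53 log2 units. The counting did not use strand and LY6G6F is on the opposite strand to the other two, so that reads could not be assigned by strand among these neighbours.

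From the study's lists the adhesion genes VWF, which tethers platelets to the vessel wall, SELP, the selectin they expose on activation, and PARVB, a partner of integrin-linked kinase, were called higher. VWF was at 96.2, 51.0, 61.8, 40.8 and 72.5 CPM at 1 h and at 183, 97.5, 97.4, 69.2 and 77.5 CPM at 24 h (log2 fold change 0.68, SE 0.11, edgeR FDR = 0.0115), SELP rose by 0.63 and PARVB by 0.53 log2 units. F2R, the member called lower, encodes a thrombin receptor that leukocytes also carry. The other 6 members were not called: NFE2 (-0.43), JAM3 (-0.27), F2RL2 (-0.23), THBS1 (0.09), P2RY1 (0.17) and TMEM40 (0.33). NFE2 is also expressed by neutrophils, and it was at 480 CPM in subject A at 1 h against 111 to 163 CPM in the other 4 libraries. The cell source of the members of this list, those that rose and those that fell, was not tested.

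With single subjects left out, 5 of 13 platelet genes were called higher without subject A, 4 without subject B and 6 without each of the others. Against the coccygeal libraries processed at 1 h, 0 of 13 were called higher and 1 was called lower. The means of GNG11 were 381 ± 55.6 CPM in jugular blood at 1 h, 431 CPM in coccygeal blood at 1 h and 560 ± 44.2 CPM at 24 h, and its log2 fold change against the coccygeal libraries was 0.42 with no call. The 9 platelet genes named irrespective of change summed to between 640 and 694 CPM in subjects B to E and to 1170 CPM in subject A at 1 h, to between 701 and 1080 CPM in coccygeal blood, and to between 798 and 1070 CPM at 24 h. TMCC2, the 1 red blood cell gene tested, was called higher as well (log2 fold change 0.58, SE 0.16, edgeR FDR = 0.0132). The part of carried-over platelets or red cells in these results was not tested.

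Secreted signals moved in both directions. Of 13 chemokine and cytokine ligand genes tested, 3 were called higher and 2 lower, all from the study's lists. The shares over all genes were 1.51% and 1.15%. CXCL8, which attracts neutrophils, was at 36.8, 24.7, 17.7, 20.8 and 16.6 CPM at 1 h and at 55.2, 55.1, 34.8, 23.9 and 28.2 CPM at 24 h (log2 fold change 0.74, SE 0.13, edgeR FDR = 0.00991). CXCL5, a chemokine for the same receptor family that platelets and monocytes make, was at 7.59, 2.82, 5.02, 3.19 and 6.20 CPM at 1 h and at 13.3, 7.96, 9.22, 5.11 and 8.60 CPM at 24 h (log2 fold change 0.86, SE 0.20, edgeR FDR = 0.00852). Each was higher in 5 of 5 subjects with overlap of the groups; CXCL8 was called with each subject left out, and CXCL5 with each except subject A (0.88), where DESeq2 gave it no adjusted p. Against the coccygeal libraries 0 of the 13 were called in either direction, and CXCL8 had a log2 fold change of 0.53. GDF1, a growth factor of the TGF-beta family, was called higher at 0.90, and in 2 of the 5 fits with a subject left out.

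OSM, oncostatin M, was at 4.67, 3.41, 2.48, 3.13 and 5.16 CPM at 1 h and at 1.03, 3.02, 1.69, 1.39 and 2.52 CPM at 24 h (log2 fold change -0.98, SE 0.32, edgeR FDR = 0.0368), and NRG1, a ligand of ERBB receptors, fell by 0.61 log2 units. OSM was called in 1 of the 5 fits with a subject left out and NRG1 in all 5. The 6 ligands named irrespective of change were not called, among them IL1B, which was at 179 CPM in subject A and at 18.1 to 42.0 CPM in the other 4 libraries at 1 h, and CXCL10, an interferon target (log2 fold change 0.13, edgeR FDR = 0.48).

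**Figure D4:**
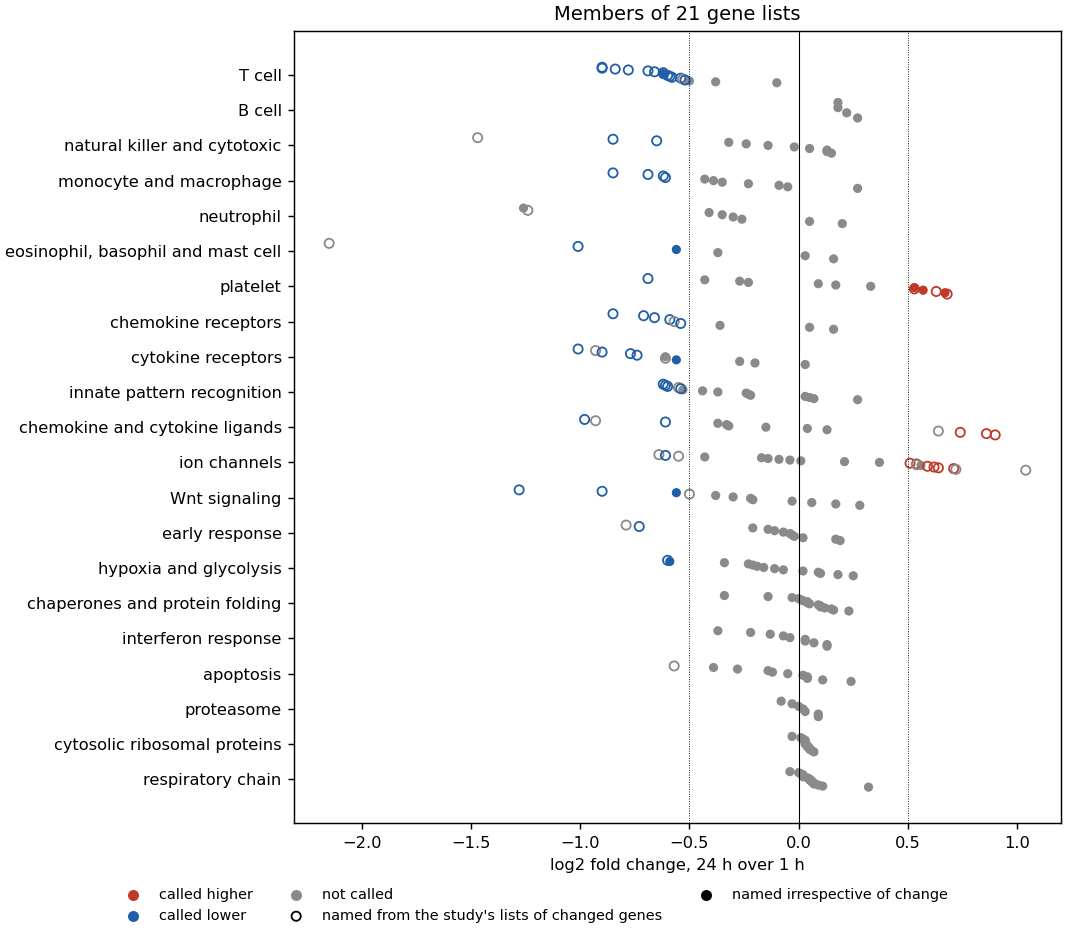
Log2 fold change (24 h over 1 h, horizontal axis) of the members of 21 gene lists, a point for each gene tested, with dotted lines at -0.5 and 0.5. Filled points were named irrespective of change and open points from the study's lists of changed genes; called members are blue (lower) or red (higher), and the ribosomal, proteasome and chaperone lists have none.

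The lists of housekeeping machinery had 0 calls, where 2.66% of all genes were called, a share at which lists of this size would hold few calls or none. Of 13 cytosolic ribosomal protein genes 0 were called, with log2 fold changes between -0.03 and 0.07. The 16 respiratory chain genes (median 0.05), the 21 mitochondrial ribosomal protein genes (median 0.00) and the 7 proteasome genes (median 0.02) had 0 calls too. Ribosomal protein transcripts summed to between 7560 and 8760 CPM at 1 h and to between 6980 and 9930 CPM at 24 h, and the ratio was above 1 in 3 subjects and below 1 in 2. All these genes were named irrespective of change.

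Lists of stress responses are set against the same 2.66%. Of 16 chaperone genes 0 were called (median 0.05), and HSP90AB1, an abundant cytosolic chaperone, was at 1030 ± 52.2 CPM at 1 h and 1060 ± 86.8 CPM at 24 h (edgeR FDR = 0.696). In the hypoxia and glycolysis list 2 of 14 were called lower, EPAS1 and CITED2. EPAS1, the hypoxia-inducible factor 2 alpha, was at 27.5, 17.3, 17.3, 18.6 and 20.1 CPM at 1 h and at 11.7, 11.8, 13.1, 12.9 and 17.8 CPM at 24 h (log2 fold change -0.59, SE 0.15, edgeR FDR = 0.0247), and it was not called without subject A (-0.42), B (-0.59) or D (-0.60), nor against the coccygeal libraries (-0.61). CITED2, which competes with hypoxia-inducible factors for a co-activator, fell by 0.60 log2 units. The glycolytic genes PGK1 (-0.21, edgeR FDR = 0.0659), PKM (-0.16, edgeR FDR = 0.198) and PFKP (-0.07, edgeR FDR = 0.50) were not called.

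Among 12 early response genes, which leukocytes switch on within minutes of activation, 1 was called lower and 0 higher. This was FOSL2, a component of the AP-1 transcription factor, at 104, 69.7, 55.0, 59.4 and 65.9 CPM at 1 h and at 44.2, 44.3, 43.7, 35.8 and 40.6 CPM at 24 h (log2 fold change -0.73, SE 0.11, edgeR FDR = 0.00713). The activation marker CD69 (-0.14, edgeR FDR = 0.403) and the orphan receptor NR4A1 (-0.03, edgeR FDR = 0.898) were not called. Interferon response genes had 0 calls of 10 and apoptosis genes 0 of 11, although STK4, a kinase of lymphocyte survival, had a log2 fold change of -0.39 (SE 0.07, edgeR FDR = 0.00403) under the fold threshold. Of 14 genes of the unfolded protein and amino acid response 1 was called lower, the stress sensor ERN1 (-0.57), and of 22 proliferation genes 0 were called.

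Histone genes included the largest rises among called genes. Of 13 tested, all from the study's lists, 9 were called higher and DESeq2 gave the other 4 no adjusted p. H2AC21 was at 0.770, 0.866, 0.652, 0.929 and 1.05 CPM at 1 h and at 9.80, 10.1, 7.54, 15.4 and 11.6 CPM at 24 h (log2 fold change 3.66, SE 0.26, edgeR FDR = 2.66e-06). Genes of this type make messages that mostly end without a poly(A) tail, and near-identical copies share reads. The summed histone level rose from between 27.0 and 39.2 CPM to between 73.1 and 114 CPM, which is 2.26 to 3.07 times in single subjects. Without subject A 2 of the 13 were called and 9, H2AC21 (3.66) and H1-4 (3.29) among them, had no DESeq2 adjusted p while passing the edgeR and fold thresholds (median 1.14). With the p-values adjusted over all genes tested, 10 of the 13 were called without any single subject. Against the coccygeal libraries 11 were called. Of 36 chromatin modifiers and histone supply genes, 1 was called higher, the DNA methyltransferase DNMT3B (0.51), and 1 lower, the lysine methyltransferase SETD7 (-0.59). Of these, 35 were named irrespective of change, so that this list is not compared with the histone genes. Over all genes, 2.66% were called. SETD7 was called in 1 of the 5 fits with a subject left out, and not against the coccygeal libraries (-0.56).

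Ion channels and adhesion molecules were called mostly from the study's lists. Of 21 ion channel genes 6 were called higher and 1 lower, where 1.51% of all genes were called higher and 1.15% lower. FXYD4, a regulator of the sodium pump, was at 301, 198, 205, 174 and 234 CPM at 1 h and at 422, 325, 274, 265 and 328 CPM at 24 h (log2 fold change 0.54, SE 0.07, edgeR FDR = 0.00191). FXYD4 was called with each subject left out, but not against the coccygeal libraries (0.37). KCNN4 (0.51), the calcium-activated potassium channel of lymphocytes and red cells, and the calcium channel subunit CACNA1S (0.59) rose as well, as did CLCN1 (0.71) and PANX2 (0.64), and TRPM6 (-0.61) fell. KCNN4 was called in 3 of the 5 fits with a subject left out, and not against the coccygeal libraries (0.49). Among the 9 ion channel genes named irrespective of change 0 were called (median -0.04). Between 3 and 4 were called higher with single subjects left out, and 3 without subject A.

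Of 21 cell adhesion genes 5 were called higher and 3 lower, all from the study's lists. Over all genes, 1.51% were called higher and 1.15% lower. The number of adhesion genes called higher was 2 without subject B, 3 without A or D and 1 against the coccygeal libraries. Besides VWF, SELP and PARVB, the junction protein F11R (0.55) and the adaptor SORBS3 (0.56) rose, and CDH23 (-0.75), VCAN and ITGA3 (-0.64) fell. Of 35 solute carrier genes 1 was called in each direction, the sodium-proton exchanger SLC9A5 (0.88) and the sodium-calcium exchanger SLC8A1 (-0.68), and of 38 zinc finger genes 1 was called, ZBTB38 (-0.51). With 2.66% of all genes called, lists of this size would hold few calls or none. The solute carrier and zinc finger counts are therefore no result about these families.

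The 35 called genes of the block named irrespective of change add genes that were named without regard to their change. SEMA4D, a semaphorin of T cells, was at 299, 205, 199, 180 and 199 CPM at 1 h and at 114, 145, 146, 130 and 141 CPM at 24 h, with no overlap of the groups (log2 fold change -0.66, SE 0.12, edgeR FDR = 0.0262), although it was called in 1 of the 5 fits with a subject left out. PRDM1, the regulator of effector and plasma cell differentiation, fell from 49.4 ± 5.89 to 35.4 ± 10.5 CPM (-0.52), and ARHGAP31 from 74.2 ± 2.12 to 52.5 ± 5.13 CPM (-0.50). PRDM1 and ARHGAP31 were each called in 2 of the 5 fits with a subject left out, and neither was called against the coccygeal libraries. Among the genes that rose, SNAPC4, a subunit of the complex that starts transcription of small nuclear RNA genes, was at 65.2, 81.0, 83.9, 60.8 and 79.4 CPM at 1 h and at 105, 114, 104, 100 and 113 CPM at 24 h (log2 fold change 0.55, SE 0.08, edgeR FDR = 0.00332). Its groups did not overlap, and it was called with each subject left out, but not against the coccygeal libraries (0.50).

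Other genes of that block that rose included KCP (0.80), a secreted regulator of BMP signalling, ADAM11 (0.65), REC8 (0.64), a meiotic cohesin subunit, CLGN (0.63), a chaperone of the testis, DPEP3 (0.71), COL11A2 (0.54) and RGS20 (0.50), a regulator of G protein signalling. KCP was at 40.3, 39.7, 59.5, 11.4 and 42.8 CPM at 1 h and at 104, 70.7, 74.3, 20.8 and 65.6 CPM at 24 h, and subject D was lowest at both times. REC8 was not called without subject B, C, D or E, and had no DESeq2 adjusted p without A. Without subject A the block had 12 genes called higher and 2 lower in place of 20 and 15, and 4 that passed the edgeR and fold thresholds had no DESeq2 adjusted p. Across the 1622 genes the log2 fold change had a Spearman's rho of -0.16 with transcript length and of -0.02 with mean level, given as a description since genes are not independent replicates.

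Most genes with the largest changes had no name in the sources used here. ENSBTAG00000052369 was at 22.1, 25.5, 30.6, 33.8 and 51.6 CPM at 1 h and at 121, 188, 113, 152 and 131 CPM at 24 h, with no overlap of the groups (log2 fold change 2.15, SE 0.26, edgeR FDR = 0.00496). ENSBTAG00000010496 was at 18.2, 21.1, 29.2, 16 and 21.8 CPM at 1 h and at 3.41, 7.03, 9.94, 5.62 and 12.7 CPM at 24 h (log2 fold change -1.53, SE 0.18, edgeR FDR = 0.00464). Both were called with each subject left out and against the coccygeal libraries. DGKG, a diacylglycerol kinase, fell from 5.06 ± 1.12 to 2.54 ± 0.677 CPM (log2 fold change -1.01, SE 0.26, edgeR FDR = 0.0101). DGKG was not called against the coccygeal libraries (-0.63). Without subject A it had no DESeq2 adjusted p, and was not called there with p-values adjusted over all genes tested.

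The groups at 24 h and 1 h did not overlap for 39 of the 202 genes called higher and 58 of the 154 called lower, where 1.45% of all genes tested had every library at 24 h above and 2.51% every library at 24 h below those at 1 h. With the coccygeal libraries as the baseline, 165 of the 355 called genes that could be tested were called again in the same direction; both comparisons share the libraries at 24 h. CD4, for example, had 284 CPM in coccygeal blood, 257 ± 30.8 CPM in jugular blood at 1 h and 170 ± 37.9 CPM at 24 h, and its log2 fold change against the coccygeal libraries was -0.75 with no call.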

How the data were processed

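RNA of PWBCs from 5 heifers was extracted in one batch and sequenced from stranded poly(A) libraries. The authors used cutadapt 2.8 for adapters and HISAT2 2.2.0 for alignment to ARS-UCD1.2, dropped duplicate pairs, and assigned the remaining fragments to Ensembl genes in featureCounts (Subread 2.0.1), without strand and without fragments that overlap several genes. The values they deposited are these raw counts. Of the 30 columns, 15 were not used here, because they could not be joined to a storage time. Group and subject of the others came from the authors' supplementary code.

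Genes with more than 1 CPM in 5 or more of the 10 jugular libraries were kept. At the edge of this filter 183 genes passed in exactly 5 libraries (median mean level 1.07 CPM) and 193 failed with 4 (0.94 CPM). In R 4.3.3, the quasi-likelihood test of edgeR 4.0.16 (library size only, robust, older fitting) and the Wald test of DESeq2 1.42.0 had subject as a block. The numbers pair the samples because they are the same animal: deviations from the group means correlated with r of 0.539 to 0.675 within subjects and at most 0.133 between subjects. The average between subjects, -0.155, is largely set by the centring on group means. Differences within single subjects used a prior count of 2, and those in a subject left out of the calls used a smaller one. These sets are therefore not on the same scale for genes with few counts. On simulated counts of 13268 genes, 191 of 197 changed genes (97%) were called, 0 falsely. These values hold for those counts only, and the share recovered in the measured libraries was not tested.

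Named genes are, among called genes with 1 direction in all subjects, the 12 that rose most and the 12 that fell most, called members of 31 gene lists, and abundant members of lists described, with at most 2 unnamed identifiers in each direction; others, such as genes of the block named irrespective of change, were chosen after their values were seen. The members and the lists were chosen with earlier results of these data known. The study's filter on FPKM was not applied, and its fits also held other storage times. Alternatives were other filters, TMM, each tool alone, other fold thresholds, other fitting, no block, the coccygeal baseline, each subject left out and, added after the data were seen, DESeq2 p-values adjusted over all genes tested. A gene that passed in edgeR and had no DESeq2 adjusted p in an alternative was not counted as lost. RNA integrity was not analysed here. Some results on single genes are not reported here.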

Additional observations from a re-analysis of the deposited data

Results flagged for a closer look

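Values of 1 library far from the other 4 of its group (Dixon's test) were found in 14 of 170 groups examined, where chance gives about 1 in 20. Of these, 6 were subject A at 1 h. Its neutrophil genes summed to 788 CPM against 215 to 322 CPM in the others, and its platelet genes to 1170 CPM against 640 to 694 CPM. FYB1 was at 274 CPM against 137 to 158, SEMA4D at 299 CPM against 180 to 205, EPAS1 at 27.5 CPM against 17.3 to 20.1 and PARVB at 117 CPM against 52.1 to 67.6. The part of the makeup of this library in the changes of subject A was not tested. In coccygeal blood at 1 h subject A had 550 CPM of the neutrophil genes against 282 to 478 CPM in the others. Its platelet genes there summed to 896 CPM against 701 to 1080 CPM.

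Of the other libraries at 1 h, NLRC4 was at 16.9 CPM in subject B against 26.6 to 30.1, and GDF1 at 4.83 CPM in subject E against 1.73 to 2.61. At 24 h subject A had 183 CPM of VWF against 69.2 to 97.5, 186 CPM of PARVB against 76.1 to 97.8 and 1.1 CPM of GATA2 against 0.33 to 0.505. Subject E had 1.58 CPM of ENSBTAG00000050871, described as mast cell protease 2, against 0.26 to 0.568, and 17.8 CPM of EPAS1 against 11.7 to 13.1. Subject C had 17 CPM of EOMES against 7.02 to 9.67.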

How the results depend on the processing

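The count of 356 called genes moved by less than 1.5 times with no filter, a stricter filter, TMM scaling, the newer fitting, estimation that is not robust, each tool alone (313 to 484 genes) and DESeq2 p-values adjusted over all genes tested (366 genes, 204 higher and 162 lower), the last chosen after seeing the data, and against the coccygeal libraries (250 genes), although 119 rather than 202 were then called higher. With no replicate block 28 genes were called, 19 higher and 9 lower, 25 of them among the 356. With no threshold on the fold change 1297 genes were called, 672 higher and 625 lower, and with one above 1 log2 unit 24, 14 higher and 10 lower. With single subjects left out, from 156 (A left out) to 389 (C left out) genes were called, 89 to 207 higher and 67 to 182 lower, and 237 with B left out. With p-values adjusted over all genes tested these ranges were 182 to 393, 107 to 210 higher and 75 to 183 lower. Of 63 called genes examined one by one, 30 were called in all 5 of the first fits and 33 with that adjustment, while 18 were not called without subject A, 15 without B, 14 without D, 7 without E and 5 without C. A further 10 without A, and 1 each without B, D and E, had no DESeq2 adjusted p and are not counted as lost. CCR7 was not called without B or C, LY6G6F and RGS20 without B, KCP without D, and LY6G6C without B or D. Under TMM scaling 62 of the 63 were called again, all except ARHGAP31. Of the 63, 32 were not called against the coccygeal libraries. No named gene that was called with the main settings or under an alternative differed in sign between them. With no replicate block, 0 genes of the T cell, chemokine receptor, cytokine receptor, monocyte and platelet lists were called, against 7 histone genes of 13. With 5 animals and 3 counts at 0.154 to 0.242 CPM, changes of genes near 1 CPM could not be judged well, and 15 of the libraries in the series, with the earlier storage times, were not analysed here.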
